A study of Mus musculus with 24 samples.

Results

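The 10 genes described here are Csf1 and Il34, the ligands of the receptor Csf1r, then Csf1r itself, and 7 genes used as markers of macrophages and microglia: Cx3cr1, Trem2, Tyrobp, Aif1, C1qa, C1qb and C1qc. They were chosen by symbol from a table of normalized read counts that holds 20782 genes, and all 10 were found in it. Macrophages survive, divide and mature through Csf1r, a receptor tyrosine kinase on their surface, and both ligands bind it at overlapping sites. In sensory ganglia, resident macrophages lie around the neuron cell bodies, and Csf1 is known as a gene that sensory neurons switch on when their peripheral axon is cut. Csf1r and the marker genes belong to the macrophage side of this exchange, so the ligands and the receiving cells can be read in the same libraries.

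The 24 RNA-seq libraries came from mouse dorsal root ganglia, the clusters of sensory neuron cell bodies beside the spinal cord, in 8 groups of 3. Adult lumbar ganglia were dissociated, plated on laminin in Neurobasal-A with B-27 and collected after 6, 12, 24 and 36 h. Ganglia L4 and L5 were taken from adults after a peripheral lesion (conditioned, in the design text) or a sham operation, and embryonic lumbar ganglia at E17.5 and at E12.5. No strain, sex, adult age, lesion site or interval between lesion and collection is given in the labels, nor whether a library is 1 animal or a pool, so p-values measure only how these samples spread, and that spread may be technical. Every library is labelled as DRG neuron and carries a protocol that names cell sorting, and whether sorting was applied to the uncultured ganglia is not stated. None of the 12 general neuron markers examined was at 0 in any group, but the 7 Schwann cell markers (Mbp, Pmp22 and others) summed to 14404 to 64907 normalized read counts in adult libraries, so the libraries were not of neurons alone. The libraries held between 3.10 and 25.7 M reads each, and the shallowest libraries at 6 h, 12 h and E17.5 held 3.65, 3.14 and 3.10 M reads.

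Lesioned ganglia had more RNA of the ligand Csf1, of its receptor and of nearly every macrophage gene examined. Cultures also had high Csf1, while their Csf1r, Cx3cr1 and C1q values lay below those of every sham library. A gene was called when limma on log2(value + 1) gave a Benjamini-Hochberg adjusted p under 0.05 over all genes tested, and "rose" and "fell" are used for called genes. After lesion 9 of the 10 genes rose relative to sham, where 20.9% of all genes tested rose, and all 10 had lesion values above every sham value, as 26.3% of genes did. The median log2 change of the 10 was 1.33, against -0.01 over all genes. In cultures at 6 h relative to sham, Csf1 alone rose, where 23.3% of genes did, and 7 of 10 fell, where 24.5% of genes did. From 6 to 36 h in culture 4 of the 7 genes tested rose, against 25.3% of genes, and the F test over the 4 times called 4 of 7 as well, against 45.7% of genes. At E17.5 relative to E12.5, 5 of the 9 tested rose, against 31.1% of genes, and 1 of the 5, Il34, passed the filter on low values (10 in at least 3 libraries) only through the E17.5 libraries. Likewise Trem2, Tyrobp and Aif1 were tested after lesion only because the lesion libraries passed it, and Trem2 and Tyrobp are among the 9 rises. At 6 h relative to sham, Trem2, 1 of the 7 falls, passed it only through uncultured libraries. Sham ganglia against E17.5 had 1 rise (28.1% of genes) and 1 fall (28.5%). The lesion and 6 h comparisons share the sham libraries, and the sham libraries are also one side of the comparison with E17.5.

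**Figure D1:**
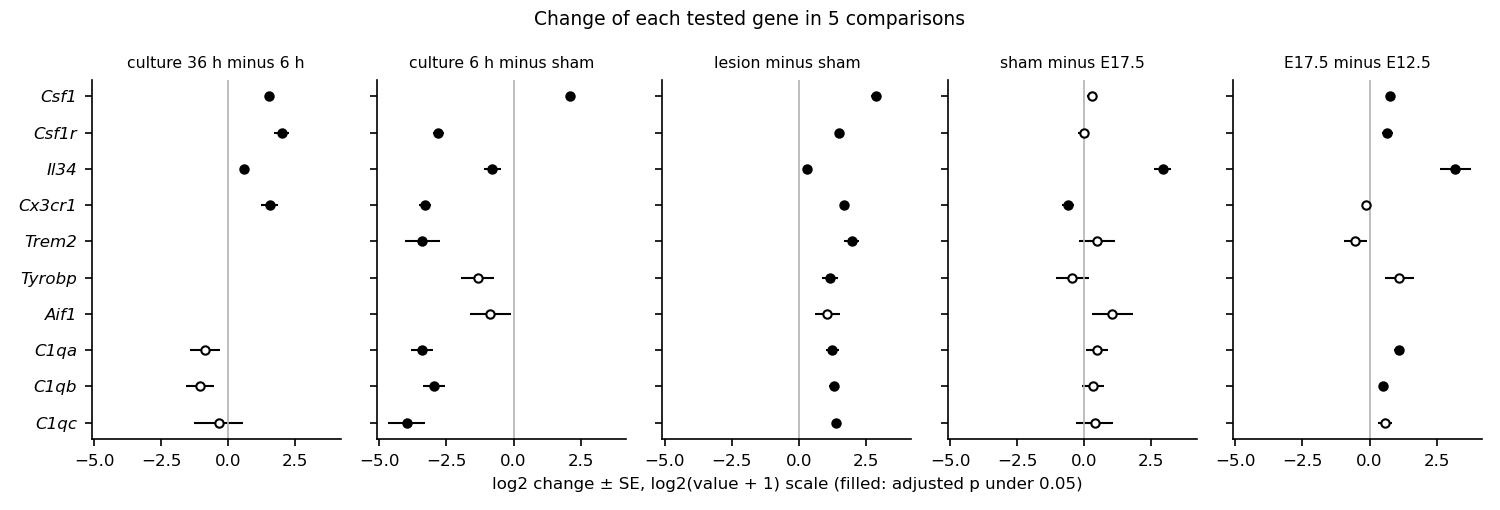
Log2 change with its standard error (limma, log2(value + 1) scale) of the 10 genes in 5 comparisons, with filled points for an adjusted p under 0.05 and no point where a gene was not tested. Lesion minus sham has all 10 points right of 0, and culture 6 h minus sham has Csf1 right of 0 and the macrophage genes left of it.

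Csf1 encodes colony stimulating factor 1, the ligand made as a secreted and a membrane-bound protein, and lies at chr3:107741048-107760469 on the minus strand (GRCm38, GENCODE M21). After lesion its normalized read counts were 3612, 2276 and 3077 in the 3 libraries, against 368, 393 and 460 in the 3 sham libraries. Every lesion library lay far above every sham library. The means were 2988 ± 672 after lesion and 407 ± 47.5 after sham operation (SD, n = 3 each), a 7.34-fold difference and a log2 change of 2.85 ± 0.15 (SE, limma adjusted p = 1.55e-06). Library titles carry numbers of 2 series, 69 to 75 and 123 and 124. In libraries 124 and 123 Csf1 was 3077 after lesion and 460 after sham operation, and with the series as a term the adjusted p was 2.58e-06. Leaving out any 1 library gave log2 changes between 2.70 and 3.04.

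In culture Csf1 was above sham and embryonic levels at each time and increased with time after plating. At 6 h the libraries had 1928, 1805 and 1555, at 12 h 2010.5, 2459 and 2889, at 24 h 4038, 4379 and 3613, and at 36 h 4685, 5601 and 4955. No library of a time overlapped the libraries of the time before it. The change from 6 to 36 h was 1.53 ± 0.14 on the log2 scale (limma adjusted p = 4.26e-07), and the F test over the 4 times gave an adjusted p of 1.5e-06. Of the single steps, 24 h against 12 h (4.82% of genes rose) was called with a log2 change of 0.72 ± 0.14 (adjusted p = 0.00374), and 12 h against 6 h (5.86% of genes rose) with 0.47 ± 0.14 (adjusted p = 0.0444). The earlier call was lost without 6 h replicate 1, 2 or 3 or 12 h replicate 2 or 3 (adjusted p = 0.0613 to 0.18), without the filter on low values (0.0684) and under median-ratio scaling (0.05). DESeq2 on recovered reads kept that call (adjusted p = 0.0131). The step to 36 h, where 1.11% of genes rose, had a log2 change of 0.34 ± 0.14 and was not called (adjusted p = 0.208).

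Against sham ganglia, Csf1 at 6 h had a mean of 1762 ± 190, against 407 ± 47.5 in sham ganglia, a log2 change of 2.11 ± 0.16 (limma adjusted p = 1.86e-10). Culture libraries are numbered 339 to 350 and sham libraries 69, 70 and 123, so library number and culture cannot be told apart here. Every culture library had Csf1 of 1555 or more, and the uncultured E17.5 libraries had 303 to 381. Endothelial cells are another source of Csf1, and their 8 markers (Pecam1, Cdh5 and others) summed to 2831 to 3571 at 6 h and 4690 to 6277 at 36 h, against 1462 to 1718 after lesion and 1334 to 1496 after sham operation. At 36 h against 6 h, 25.3% of all genes rose and 25.3% fell. Of the 8 endothelial markers 7 rose, and their part in the Csf1 values of the cultures was not tested. General neuron markers summed to 100520 to 139632 at 36 h and 164286 to 200210 at 6 h, with 6 of 12 called lower and 1 higher at 36 h, and of 12 injured sensory neuron genes 6 rose.

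Csf1 was lowest at E12.5. The E17.5 libraries had 381, 303 and 326 and the E12.5 libraries 171, 217 and 207, with no overlap. This was a log2 change of 0.76 ± 0.16 (limma adjusted p = 0.00296). Sham ganglia and E17.5 overlapped, with means of 407 ± 47.5 in sham ganglia and 337 ± 40.1 at E17.5 and a log2 change of 0.27 ± 0.16 that was not called (adjusted p = 0.141). Ordered by mean, Csf1 was highest at 36 h, then at 24 h, after lesion, at 12 h, at 6 h, after sham operation, at E17.5 and at E12.5, and the neighbours that overlapped were lesion with 12 h and sham with E17.5. Per kilobase of exon, the mean level of Csf1 ranked 364 among 19564 genes at 36 h and 881 after lesion, against 5865 after sham operation.

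**Figure D2:**
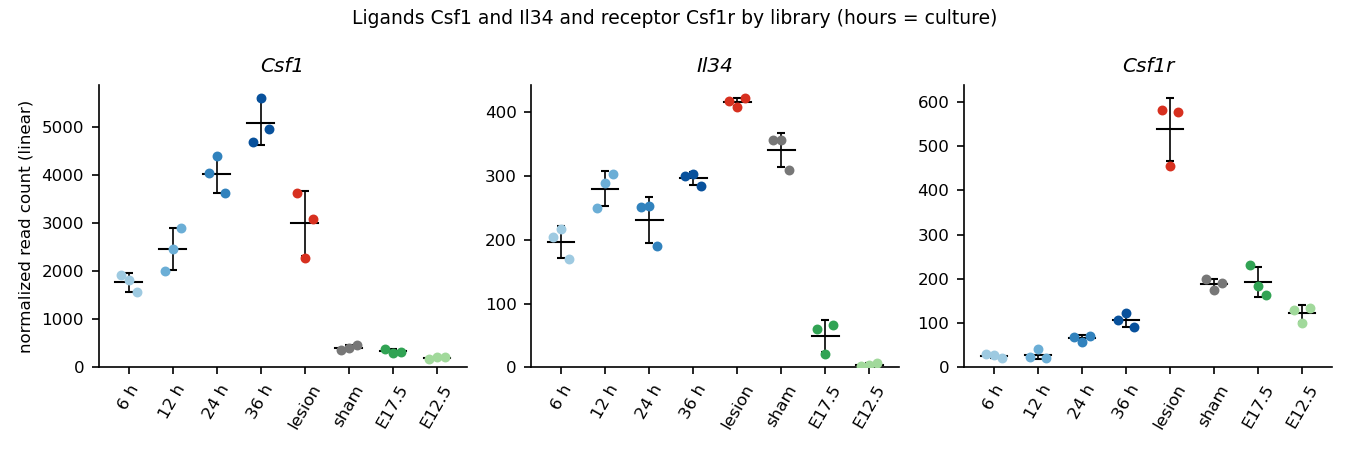
Normalized read counts (linear axes from 0) of Csf1, Il34 and Csf1r in each library by group, hours marking cultures, with lines for the mean and bars for the SD of 3 libraries. Csf1 sits at 2276 to 3612 after lesion, above the sham values of 368 to 460, and reaches 4685 to 5601 at 36 h, while Csf1r is highest after lesion at 456 to 583.

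The promoter of Csf1 is shown because this gene had the largest lesion change of the 10. The 250 bases before its start, written 5′ to 3′ from the RefSeq table for GRCm38.p6, were searched together with the 50 bases after it on both strands for the AP-1 letters TGANTCA and the PU.1 letters GAGGAAGT. AP-1 factors are induced in injured neurons, and PU.1, encoded by Spi1, is the main myeloid factor of macrophages. Among 32851 such windows, 7.81% hold the AP-1 letters and 3.20% the PU.1 letters, and the Csf1 window holds neither. No capitals therefore appear in it.
Csf1, chr3:107760470-107760719, minus strand: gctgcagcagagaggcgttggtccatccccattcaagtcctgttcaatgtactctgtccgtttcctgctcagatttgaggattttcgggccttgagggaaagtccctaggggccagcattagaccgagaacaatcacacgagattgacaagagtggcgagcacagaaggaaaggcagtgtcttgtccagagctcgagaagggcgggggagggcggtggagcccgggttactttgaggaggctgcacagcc

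Il34 encodes the other ligand of Csf1r, unrelated to Csf1 in sequence and made mainly by neurons in the brain and by keratinocytes in the skin. Its largest differences here lay between ages. The lesion libraries had 417, 409 and 422, against 356, 356 and 310 in sham libraries. The ranges did not overlap, and the log2 change was 0.29 ± 0.09 (limma adjusted p = 0.0191). It was not called without sham replicate 3 (adjusted p = 0.084) or with the spread estimated over all 24 libraries (adjusted p = 0.609).

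At E17.5 Il34 had 59.5, 21.2 and 67.1, against 1.65, 4.50 and 7.21 at E12.5, the E12.5 values resting on 3, 7 and 10 reads. All E17.5 libraries lay above all E12.5 libraries, with a log2 change of 3.19 ± 0.57 (limma adjusted p = 0.00125, and 0.00188 without the filter on low values). Sham ganglia, at 341 ± 26.8, again stood above E17.5, at 49.2 ± 24.6, with a log2 change of 2.92 ± 0.33 (adjusted p = 6.89e-08). In culture Il34 stayed within 169 to 304. It was lower at 6 h, with 197 ± 25.1, than in sham ganglia, with 341 ± 26.8, without overlap and at a limma adjusted p of 0.0488. That call was lost under pseudocount 0.5, without the filter on low values, under TMM scaling and without any 1 of the 6 libraries (adjusted p up to 0.145). DESeq2 on recovered reads kept it (adjusted p = 6.17e-06). From 6 to 36 h Il34 rose by 0.59 ± 0.16 on the log2 scale (limma adjusted p = 0.00609, and 0.129 with all 24 libraries in the fit).

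Per kilobase of exon, Csf1 was 2.06 to 3.21 times Il34 in lesion libraries and 0.383 to 0.551 times Il34 in sham libraries. In cultures the ratio was 2.99 to 3.54 at 6 and 12 h and 5.78 to 7.04 at 24 and 36 h. It was 1.80 to 5.32 at E17.5 and 10.7 to 38.6 at E12.5, where Il34 was nearly undetected. Il34 thus exceeded Csf1 per kilobase in the sham libraries only, among the 24.

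Csf1r encodes the receptor for both ligands and is a defining gene of the macrophage lineage. It lies at chr18:61100598-61132149 on the plus strand. After lesion its normalized read counts were 583, 456 and 576, against 200, 175 and 190 after sham operation. The lesion values were all far above the sham values, with a log2 change of 1.51 ± 0.11 (limma adjusted p = 6.97e-07). In these bulk libraries, more macrophages and more Csf1r RNA per macrophage cannot be told apart, and the same holds for each macrophage gene below. Of the 5774 exon bases of Csf1r, 873 overlap exons of Hmgxb3 on the other strand, and the kit used does not mark strand, so part of the value may come from that gene. Hmgxb3 itself had log2 changes of 0.23 ± 0.09 after lesion, 0.43 ± 0.14 from 6 to 36 h in culture and 0.05 ± 0.12 at 6 h against sham.

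Cultures had the lowest Csf1r. The 6 h libraries had 29.8, 28.0 and 21.2, all under the sham values, with a log2 change of -2.80 ± 0.21 against sham (limma adjusted p = 3.44e-10). At 12 h the values were 23.4, 40.4 and 21.9, at 24 h 68.9, 57.6 and 70.5, and at 36 h 108, 122 and 91.4. The 6 and 12 h libraries overlapped, and each later time lay above the one before. Csf1r rose by 1.99 ± 0.28 on the log2 scale from 6 to 36 h (adjusted p = 2.79e-05), and most of that came between 12 and 24 h, with 1.22 ± 0.28 (adjusted p = 0.0102). Without 12 h replicate 3 or 24 h replicate 1 that step had adjusted p = 0.0502 and 0.0533. Csf1r at 36 h averaged 107 ± 15.6 and overlapped the E12.5 libraries (100.2 to 135), below every sham library.

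Csf1r was 232, 183 and 164 at E17.5 and 131, 100.2 and 135 at E12.5, and rose by 0.66 ± 0.20 on the log2 scale (limma adjusted p = 0.0179). The groups did not overlap, but without E17.5 replicate 1 or E12.5 replicate 2 the adjusted p was 0.0733 and 0.0806. Sham ganglia and E17.5 differed by -0.02 ± 0.21 and were not told apart.

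Csf1 per Csf1r, in reads per kilobase, was 5.46 to 6.78 in lesion libraries and 2.01 to 2.65 in sham libraries, without overlap. The exact two-sided permutation p was 0.1, the smallest that 3 libraries against 3 allow. In cultures the ratio was 70.4 to 80.4 at 6 h and 47.5 to 59.3 at 36 h, and at E17.5 and E12.5 it was 1.80 to 2.17 and 1.43 to 2.36.

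Cx3cr1 encodes the receptor for fractalkine (Cx3cl1), a ligand presented by neurons and endothelial cells, and marks monocytes, resident macrophages and microglia. It had 593, 421 and 378 after lesion, against 132, 151 and 143 after sham operation. The groups were far apart, and the log2 change was 1.67 ± 0.15 (limma adjusted p = 3.6e-06). Cx3cl1 itself was 142 ± 26.0 after lesion and 122 ± 7.63 after sham operation. Embryonic ganglia had more Cx3cr1 than sham ganglia, with 233, 215 and 201 at E17.5 and 215, 218 and 283 at E12.5. These embryonic groups overlapped and were not called (log2 change -0.13 ± 0.16, adjusted p = 0.503), and sham ganglia were below E17.5 by a log2 change of -0.60 ± 0.23 (adjusted p = 0.026). That call rests on few libraries, since it was lost without sham replicate 1 or 3 or E17.5 replicate 1 or 2 (adjusted p = 0.052 to 0.0815).

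In cultures Cx3cr1 fell to 18.2, 13.2 and 10.6 at 6 h, a log2 change of -3.29 ± 0.23 against sham (limma adjusted p = 5.83e-11). At 36 h it had 38.8, 54.3 and 34.2, above every 6 h library, and the rise of 1.54 ± 0.32 from 6 to 36 h was called (adjusted p = 9.74e-04). The 6 h value of 10.6 rests on 3 reads.

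Trem2 encodes a lipid-sensing receptor of microglia and macrophages, and Tyrobp (DAP12) the adaptor through which Trem2 signals. Trem2 had 61.9, 41.7 and 43.9 after lesion, against 14.8, 8.04 and 13.2 after sham operation. No values overlapped, and the log2 change was 1.97 ± 0.28 (limma adjusted p = 1.10e-04). Tyrobp had 26.3, 21.7 and 35.3 after lesion, against 15.7, 12.4 and 8.03 after sham operation, again without overlap and with a log2 change of 1.16 ± 0.31 (adjusted p = 0.00892). With the spread taken over all 24 libraries the Tyrobp change was not called (adjusted p = 0.225). Both genes had few reads: 181 for Trem2 over the 3 lesion libraries (exact Poisson interval 156 to 209, counting error only) and 49 over the sham libraries (36.3 to 64.8).

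In culture Trem2 was close to undetected. It was at 0 in 7 of 12 culture libraries and had at most 6 reads in any of them, with 1 read in all at 6 h (0.0253 to 5.57). The fitted log2 change of 6 h against sham was -3.40 ± 0.66 (limma adjusted p = 1.91e-04), a value that depends on the pseudocount. Tyrobp had 3.63, 4.95 and 3.53 at 6 h, from 5, 9 and 1 reads. It was not called against sham (log2 change -1.34 ± 0.62, limma adjusted p = 0.0764), although edgeR and DESeq2 on recovered reads called it (adjusted p = 0.0234 and 0.0317). Neither gene passed the filter for a test among the cultures. In embryos neither was called between E17.5 and E12.5, and Tyrobp overlapped between them with 25.4, 7.05 and 23.1 against 6.59, 5.14 and 10.1. The E17.5 value of 7.05 rests on 2 reads, and without that library the Tyrobp difference was called (adjusted p = 0.0121), as it was with edgeR (0.015) and DESeq2 (0.0453).

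RefSeq promoter windows of 6 of the 10 genes were searched (Csf1, Cx3cr1, Trem2, Aif1, C1qb and C1qc), and those of Csf1r, Il34, Tyrobp and C1qa were not. Among the 6, the AP-1 letters occurred only in that of Trem2. They start 9 bases before the transcription start and are in capitals below.
Trem2, chr17:48346151-48346400, plus strand: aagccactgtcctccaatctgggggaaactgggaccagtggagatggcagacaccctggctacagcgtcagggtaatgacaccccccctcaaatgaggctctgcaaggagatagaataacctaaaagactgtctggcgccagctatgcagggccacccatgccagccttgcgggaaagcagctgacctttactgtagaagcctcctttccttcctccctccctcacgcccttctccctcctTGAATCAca

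Aif1 encodes Iba1, the calcium-binding protein whose antibody is the common stain for macrophages and microglia. Its RNA was scarce in every group. The lesion libraries had 10.1, 10.0 and 17.3, from 13, 6 and 30 reads, against 8.86, 6.58 and 2.29 in sham libraries, from 9, 9 and 4 reads. The values did not overlap, but the log2 change of 1.06 ± 0.45 was not called (limma adjusted p = 0.076, and 0.0823 without the filter on low values). It passed the threshold with edgeR on recovered reads (adjusted p = 0.0386) and without sham replicate 1 (adjusted p = 0.0481), but not with DESeq2 (adjusted p = 0.16). In cultures Aif1 had 0 to 7 reads per library, and the 6 h value of 14.1 rests on 4 reads in the shallowest library of that time.

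C1qa, C1qb and C1qc encode the 3 chains of C1q, which starts the classical complement cascade and is made mostly by macrophages and microglia. The genes lie side by side on the minus strand of chromosome 4, in the order C1qb (chr4:136880129-136886187), C1qc (chr4:136889804-136893065) and C1qa (chr4:136895917-136898803), within 18.7 kb. After lesion C1qa had 923, 466 and 755, against 293, 317 and 263 after sham operation. C1qb had 919.5, 534 and 722 after lesion and 313, 299 and 256 after sham operation, and C1qc had 748, 489 and 631 after lesion and 228, 284 and 203 after sham operation. In all 3 genes the lesion libraries lay above the sham libraries, and replicate 2, the shallowest lesion library, was the lowest.

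The log2 changes of the chains were alike, at 1.24 ± 0.23 for C1qa (limma adjusted p = 0.00488), 1.29 ± 0.17 for C1qb (adjusted p = 3.47e-04) and 1.38 ± 0.16 for C1qc (adjusted p = 6.59e-05). With the spread over all 24 libraries C1qc was not called (adjusted p = 0.192). C1qa and C1qb were among the more abundant RNAs of lesioned ganglia, ranking 704 and 726 of 19564 genes per kilobase of exon. The proportions of the chains overlapped between lesion and sham libraries. Per kilobase, C1qa was 37.6% to 42.3% of the C1q sum in lesion libraries and 41.0% to 42.6% in sham libraries.

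The promoters of the C1q genes in the RefSeq table are shown because these genes lie together and changed together. The C1qc window holds the PU.1 letters on the opposite strand, in capitals, starting 195 bases before the start, and the C1qb window holds neither motif.
C1qb, chr4:136886201-136886450, minus strand: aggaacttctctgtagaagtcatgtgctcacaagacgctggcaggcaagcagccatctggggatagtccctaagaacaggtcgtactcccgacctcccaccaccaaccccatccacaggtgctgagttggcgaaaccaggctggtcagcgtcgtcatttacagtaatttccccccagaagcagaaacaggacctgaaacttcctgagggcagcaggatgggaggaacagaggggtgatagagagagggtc
C1qc, chr4:136892915-136893164, minus strand: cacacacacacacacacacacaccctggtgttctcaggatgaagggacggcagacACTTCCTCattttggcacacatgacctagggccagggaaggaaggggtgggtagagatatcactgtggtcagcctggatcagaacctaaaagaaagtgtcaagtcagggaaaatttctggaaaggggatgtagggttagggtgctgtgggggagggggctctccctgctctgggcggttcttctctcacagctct

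Cultures held little C1q RNA. C1qa had 29.8, 15.4 and 38.8 at 6 h, below every sham library, with a log2 change of -3.42 ± 0.40 (limma adjusted p = 3.31e-07). C1qb and C1qc changed by -2.97 ± 0.40 (adjusted p = 2.05e-06) and -3.98 ± 0.69 (adjusted p = 5.39e-05). From 6 to 36 h, Csf1r and Cx3cr1 rose but no C1q gene was called higher. C1qa was 14.5 ± 5.52 at 36 h and 28.0 ± 11.8 at 6 h, and C1qb 18.4 ± 9.71 at 36 h and 40.7 ± 23.1 at 6 h. None of the 3 was called (adjusted p = 0.2, 0.105 and 0.762), but edgeR and DESeq2 on recovered reads called C1qb lower at 36 h (log2 change -1.22 and -1.19, adjusted p = 0.0305 and 0.0385), as did limma without 6 h replicate 3 (0.028) and with all 24 libraries in the fit (0.0293).

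The reads of the C1q genes per read of Csf1r also differed along the culture. The ratio was 2.61 to 3.66 at 6 h, 0.833 to 2.50 at 12 h, 0.425 to 0.964 at 24 h and 0.203 to 0.778 at 36 h. The 36 h libraries lay below all 6 h libraries (exact two-sided permutation p = 0.1, the smallest possible with 3 against 3). The ratio was 3.27 to 4.44 after lesion, 3.80 to 5.15 after sham operation, 2.73 to 4.24 at E17.5 and 2.67 to 3.64 at E12.5, so lesion and sham overlapped, as did the embryonic ages. The counts behind it were small in culture, with 5 to 150 C1q reads per library.

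**Figure D3:**
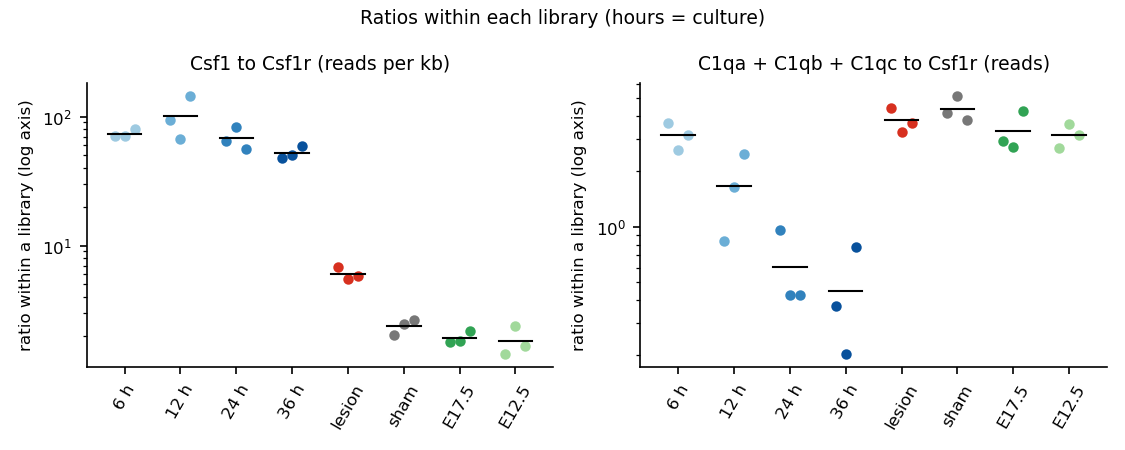
Ratios within each library on log axes, by group with hours marking cultures and lines for the mean of 3 libraries: Csf1 to Csf1r in reads per kilobase, and C1q reads per Csf1r read. The first lies at 5.46 to 6.78 after lesion and 2.01 to 2.65 after sham operation, and the second at 2.61 to 3.66 at 6 h and 0.203 to 0.778 at 36 h.

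In embryos C1qa had 193, 198 and 231 at E17.5 and 98.3, 80.3 and 110.3 at E12.5, and rose by 1.11 ± 0.18 on the log2 scale (limma adjusted p = 7.56e-04) without overlap. C1qb rose by 0.51 ± 0.18 (adjusted p = 0.0313), a call lost without any 1 of 4 libraries and with all 24 libraries in the fit (adjusted p up to 0.273). C1qc, at 187 ± 61.2 at E17.5 and 121 ± 19.1 at E12.5, overlapped and was not called (adjusted p = 0.097), although it was with edgeR and DESeq2 (adjusted p = 0.0417 and 0.0327). Sham ganglia stood above E17.5 for C1qa without overlap, at 291 ± 27.0 in sham ganglia and 207 ± 20.8 at E17.5, but the log2 change of 0.49 ± 0.40 was not called (adjusted p = 0.318), although it was with these groups alone in the fit (adjusted p = 0.013).

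**Figure D4:**
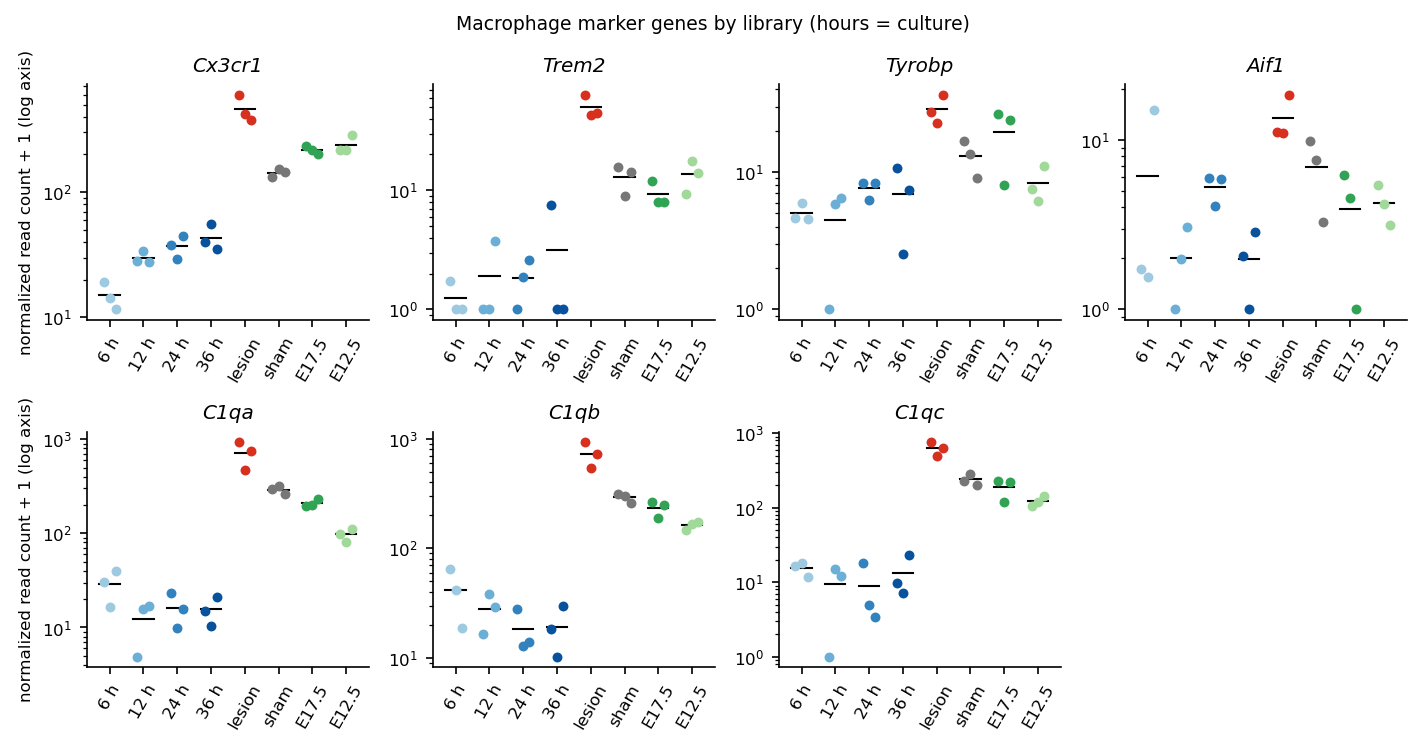
Normalized read counts plus 1 (log axes) of the 7 macrophage marker genes in each library by group, hours marking cultures, with lines at the group mean plus 1. Lesion points lie above sham points in all 7 panels, and Trem2 is at 0 in 7 of the 12 culture libraries.

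The mean log2(value + 1) over the 8 macrophage genes, Csf1r included, was 7.23 to 7.73 in lesion libraries, 5.90 to 6.30 in sham libraries, 5.69 to 6.27 at E17.5 and 5.49 to 5.69 at E12.5. In the 12 culture libraries it was 1.97 to 3.85. High Csf1 thus went with high levels of these 8 genes in lesioned ganglia and with low ones in cultures. The lowest culture value belonged to 12 h replicate 1, the shallowest library of that time. Of the 8, Trem2, Tyrobp and Aif1 had 0 to 12 reads per culture library. The summed values of 26 other macrophage markers were 3746 to 4989 in cultures, below the sham libraries (6330 to 6605). They were above E17.5 (2134 to 2543) and E12.5 (1306 to 1430).

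**Figure D5:**
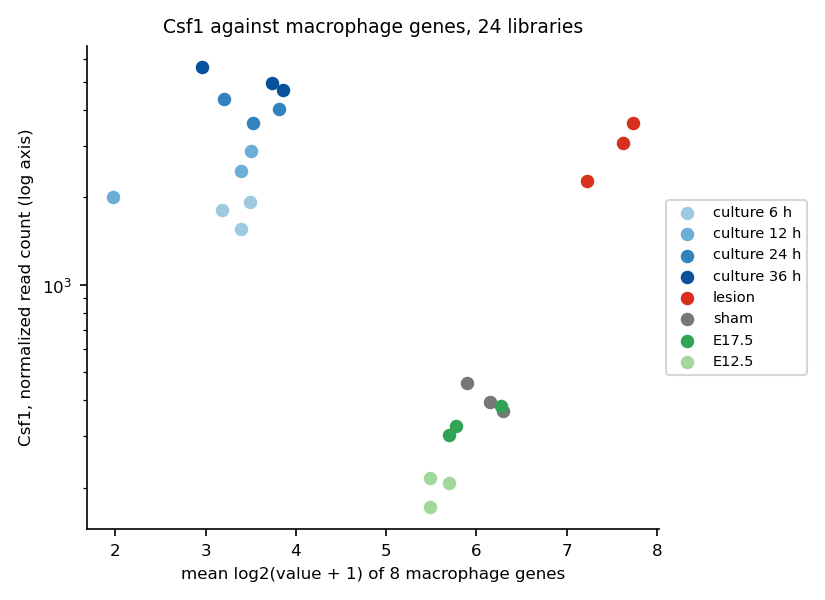
Csf1 (normalized read count, log axis) against the mean log2(value + 1) of the 8 macrophage genes, 1 point per library. Lesion libraries lie at high Csf1 and means of 7.23 to 7.73, cultures at high Csf1 and means of 1.97 to 3.85, and sham and embryonic libraries at low Csf1 and means of 5.49 to 6.30.

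Macrophage markers that are not among the 10 genes moved in the same direction after lesion for the most part. Of 25 tested, 21 rose and 2 fell, with a median log2 change of 1.16, against 20.9% and 20.2% of all genes. Mpeg1, a pore-forming protein of phagocytes, had 1055 ± 148 after lesion and 338 ± 29.9 after sham operation (log2 change 1.63 ± 0.10, limma adjusted p = 3.19e-07). Cd84, an adhesion receptor of leukocytes, had 73.1 ± 12.4 after lesion and 24.4 ± 4.29 after sham operation. Those that fell were Ly86, the partner of a Toll-like receptor relative, with 734 ± 93.3 after lesion and 1259 ± 78.0 after sham operation, and the lysosomal protease Lgmn, with 1147 ± 67.5 after lesion and 1721 ± 19.3 after sham operation. Lgmn is also expressed outside macrophages. The markers summed to 8278 to 9618 after lesion and 6330 to 6605 after sham operation, and none was at 0 in a group.

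Markers of other cells are set beside the same shares of all genes, 20.9% higher and 20.2% lower after lesion. Of 10 monocyte and neutrophil markers tested, 3 rose after lesion, among them Ccr2, the receptor of inflammatory monocytes, with 285 ± 25.8 after lesion and 128 ± 28.0 after sham operation (limma adjusted p = 4.96e-05). The largest rise on this list was of Fn1, with 710 ± 125 after lesion and 275 ± 8.5 after sham operation. With Fn1 included, the list summed to 1687 to 2453 after lesion and 1169 to 1367 after sham operation. Lymphocyte markers summed to only 46.8 to 96.9 after lesion and 42.4 to 59.9 after sham operation, and of 6 mast cell markers 1 rose. Of 5 microglia markers tested, 3 rose, and Tmem119 had 171 ± 45.2 after lesion and 69.7 ± 3.16 after sham operation. Fibroblast markers rose in 6 of 8, endothelial in 2 of 8, Schwann cell in 1 of 7, while satellite glia markers rose in 3 and fell in 2 of 8, red blood cell markers rose in 1 and fell in 2 of 7, and general neuron markers rose in 3 and fell in 7 of 12. Dividing cell markers summed to 702 to 885 after lesion and 650 to 823 after sham operation. The part of these cells in the rise of the macrophage genes was not tested.

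At 6 h against sham, 13 of the 26 macrophage markers fell and 3 rose, where 24.5% and 23.3% of all genes did, with Cd163, a scavenger receptor of resident macrophages, at 3.05 ± 4.09 at 6 h and 126.5 ± 6.19 after sham operation, and Cd14, a lipopolysaccharide co-receptor, at 176.5 ± 17.1 at 6 h and 37.5 ± 3.37 after sham operation. From 6 to 36 h 9 of 24 rose and 5 fell, where 25.3% of all genes rose and 25.3% fell. Emr1 (F4/80) was 93.8 ± 30.8 at 36 h and 23.0 ± 9.39 at 6 h (limma adjusted p = 3.81e-04), and Mrc1, the mannose receptor, was 12.3 ± 10.1 at 36 h and 38.5 ± 11.7 at 6 h (adjusted p = 0.0114). The markers summed to 4711 to 4989 at 6 h and to 3911 to 4399 at 36 h. Ly86 alone was 1472 ± 154 at 6 h and 104 ± 11.1 at 36 h, the largest fall of the list (limma adjusted p = 1.45e-10). The lower sum at 36 h thus depends on this gene.

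Around the receptor axis, 4 of 8 other ligand and receptor genes tested rose after lesion and 1 fell, where 20.9% and 20.2% of all genes did. The largest rise was of Sdc1, a proteoglycan named as an alternative receptor of Il34, with 3103 ± 700 after lesion and 638 ± 42.6 after sham operation (log2 change 2.25 ± 0.15, limma adjusted p = 4.58e-06). Sdc1 also rose in culture, with 4320 ± 586 at 36 h and 865 ± 134 at 6 h. Csf3, the granulocyte factor, was at 0 in all lesion, sham and E17.5 libraries and had 18.5 ± 4.50 at 6 h and 38.2 ± 7.79 at 36 h. Csf2 was at 0 in the lesion, sham, 6 h and embryonic groups. Flt3, a receptor of early blood and dendritic cells, fell after lesion, with 89.8 ± 7.24 after lesion and 126 ± 5.67 after sham operation (adjusted p = 0.0089).

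The next 3 counts stand beside 20.9% of all genes higher and 20.2% lower after lesion. Of 10 other genes of the Trem2 and Tyrobp receptor complex and its kinases, 7 rose after lesion. They were led by Clec5a, another receptor that signals through Tyrobp, with 27.2 ± 3.35 after lesion and 10.3 ± 0.53 after sham operation. Inpp5d, the phosphatase that dampens this pathway, had 119.5 ± 13.0 after lesion and 51.2 ± 9.28 after sham operation. Of 16 other complement genes, 10 rose and 1 fell. C3, the central component, had 48.8 ± 11.8 after lesion and 15.5 ± 8.30 after sham operation, and the complement inhibitor Cd55 had 3045 ± 768 after lesion and 5450 ± 97.7 after sham operation. With a lowest sham value of 5.90, C3 passed the filter on low values only through the lesion libraries. Of 9 macrophage transcription factors tested, 6 rose, with Irf8 at 90.9 ± 24.8 after lesion and 42.9 ± 7.48 after sham operation and Ikzf1 at 105 ± 13.6 after lesion and 51.8 ± 2.60 after sham operation.

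At 6 h in culture 7 of 10 genes on a list of monocyte chemokines and Cx3cl1 rose relative to sham, where 23.3% of all genes did. Ccl2 had 1402 ± 116 at 6 h and 17.7 ± 2.86 after sham operation (log2 change 6.24 ± 0.41, limma adjusted p = 2.77e-11). Ccl3 had 165 ± 13.7 at 6 h and 1.28 ± 1.46 after sham operation. Ccl3, 1 of the 7 rises, passed the filter on low values only through the culture libraries, as did Ccl4 and Ccl5 on that list. After lesion 2 of 6 rose, where 20.9% of all genes did. Ccl8 had 19.7 ± 6.98 after lesion and 3.38 ± 1.37 after sham operation, and passed the filter on low values only through the lesion libraries. Cxcl12 had 1040 ± 126 after lesion and 768 ± 105 after sham operation. Whether the chemokine changes differed between culture and lesion was not tested.

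Injured sensory neuron genes were measured beside Csf1 as the neuronal side of the lesion. All 11 tested rose after lesion, where 20.9% of all genes did. Sprr1a had 19140 ± 4545 after lesion and 469 ± 153 after sham operation, and Npy 428 ± 187 after lesion and 13.0 ± 2.16 after sham operation. At 6 h in culture 5 of 12 rose and 2 fell relative to sham, where 23.3% and 24.5% of all genes did. Atf3, an injury transcription factor, had 10150 ± 544 at 6 h and 557 ± 28.8 after sham operation, while Sprr1a had 29.8 ± 15.8 at 6 h. From 6 to 36 h, 6 of 12 rose, where 25.3% of all genes did. Sprr1a had 2979 ± 397 at 36 h and 29.8 ± 15.8 at 6 h, and Ecel1, a membrane protease induced in injured neurons, had 1319 ± 304 at 36 h and 54.6 ± 5.94 at 6 h.

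The genes whose log2 profile over the 24 libraries was most like that of Csf1, among 11798 genes with a mean of at least 50, were Kctd11 (Pearson r = 0.98), Fam129b (0.98), Fyb (0.97), Mia3 (0.97) and Scpep1 (0.97). Kctd11 had 579 after lesion, 258 after sham operation and 501 to 907 as means of the 4 culture times. These points share 8 groups, so the likeness is mostly one of group means. The genes most like the 8 macrophage genes were Slco2b1 (r = 0.96), Tuba1b (0.95), Fcgr3 (0.94), Tuba1c (0.94) and Prelp (0.94). Within the 12 culture libraries alone these values were 0.54, 0.56, 0.34, 0.60 and 0.21, and those of the genes like Csf1 were 0.77 to 0.97. The genes were picked over libraries that include these 12, so the culture values are a description only. The macrophage mean there also includes Trem2, Tyrobp and Aif1, with 0 to 12 reads per culture library.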

How the data were processed

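RNA of 24 mouse dorsal root ganglion libraries was sequenced, 3 for each of 8 groups. Each library used 10 ng of total RNA, prepared by TruSeq V2 chemistry according to the labels' protocols. The submitters' processing notes name TopHat and mm10. The counting tool and annotation used were not given in the sources used here. Values of the authors' deposited table are a normalized signal, 1 normalized read count per gene and library. Per library the authors' values are whole multiples of 1 step: with the lowest value of a column taken as 1 read, 339612 values of up to 1000 reads were checked and 100% were whole within 0.1. The whole reads were recovered from these steps. The design had foreseen raw counts or normalized values, and the table was treated as normalized. All 24 columns were mapped by sample description, with 0 left over. The counts had a depth of 3.10 to 25.7 M reads per library, so low values carry a large counting error, and intervals cover that error only.

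Tests used limma 3.58.1 (R 4.3.3, trend and robust) on log2(value + 1), which understates changes of low genes. Genes with a value of at least 10 in at least 3 libraries of a fit were tested, with Benjamini-Hochberg adjustment over all of them and a threshold of 0.05. Embryonic, lesion and sham, and culture libraries were fitted apart, and 6 h against sham and sham against E17.5 came from 1 fit of all 24. In these 2 comparisons and between the embryonic ages (numbers 336 to 338 at E17.5 and 84 to 87 at E12.5), library number and group cannot be told apart. Alternatives were pseudocounts 0.5 and 5, no filter, a filter at 50, TMM and median-ratio scaling, other sets of libraries, leaving out each library, the library number series as a term, and edgeR 4.0.16 and DESeq2 1.42.0 on the recovered reads. The fits were tested on simulated counts with the same spread for all genes and changes in few genes, none of low mean. That test does not cover low genes such as Trem2, Tyrobp and Aif1. On the recovered reads edgeR and DESeq2 called 6077 and 5203 genes after lesion (limma 5990), among them 10 and 9 of the 10.

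Reads per kilobase use the exon length of GENCODE M21 (GRCm38), known for 19564 genes. Promoters are from RefSeq (GRCm38.p6). Named were the 10 genes, up to 2 rises and 2 falls of each of 18 gene lists per comparison, and the 5 genes most like Csf1 and most like the macrophage genes. Hmgxb3, and Cx3cl1, Csf2 and other listed genes beyond those comparisons, were named after their values were seen. Members and lists were chosen with earlier results of these data known. In the Schwann cell and macrophage transcription factor lists, 1 gene each is not reported here and was left out of counts and sums.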

Additional observations from a re-analysis of the deposited data

How the results depend on the processing

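Of 845 alternative values for single genes, 786 kept their direction and their side of the threshold, 34 lost their call, 21 gained one and 4 turned direction, none of the last being called. Csf1r at 12 h against 6 h changed by 0.07 on the log2 scale, and -0.20 to 0.23 with 1 library left out (-0.070 without 6 h replicate 3, -0.20 without 12 h replicate 2). Csf1r in sham ganglia against E17.5 changed by -0.02, and -0.13 to 0.11 with 1 library left out (0.11 without E17.5 replicate 1, 0.03 without sham replicate 2). The number of the 10 genes called between E17.5 and E12.5 was 5, and 2 to 6 when 1 library was left out (2 without E17.5 replicate 1, 3 without E17.5 replicate 3 or E12.5 replicate 2), and without an E17.5 library Il34 did not pass the filter and was not tested. For sham against E17.5 it was 2, and 1 to 2 (1 without sham replicate 1 or 3 or E17.5 replicate 1 or 2). For lesion against sham it was 9, and 6 to 10 over all alternatives, with 6 when all 24 libraries shared 1 spread. That setting also took the genes called over the whole table after lesion to 2615, against 5990. Over single culture steps the whole-table counts ranged from 880 to 2618 (12 h against 6 h, 1588), 731 to 2564 (24 h against 12 h, 1734) and 67 to 1067 (36 h against 24 h, 398). The cause was not tested. No paired analysis was possible because the labels give no replicate numbers that groups share. Depth limits Trem2, Tyrobp and Aif1, with 0 to 12 reads per culture library.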
